A study of Mus musculus with 6 samples.

Results

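The human-named lincRNA probes are the probes of a mouse lncRNA microarray whose name begins with humanlincRNA and which the scanner files do not mark as controls. The name was the only criterion, and it selected 1104 of the 60930 different probes that are not marked as controls. A further 649 probes have names beginning with mouselincRNA and 59064 carry a catalogue number. A name also holds a number and a plus or minus sign, as in humanlincRNA1995+_P1 and humanlincRNA1995-_P1. What "human" stands for on a mouse array, and what the sign stands for, was not stated in the labels and headers used here, and no sequence, coordinate or gene name of these probes was used.

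The tumour cells were from medulloblastoma (MB), a tumour of the cerebellum, dissected from mice 4 months old and dissociated. The cells they were compared with were cerebellar granule neuron precursors (GNPs) from newborn mice 4 to 6 days old. Both groups came from C57BL/6 mice carrying Tg(Neurod2-Smo*A1)199Jols/J, in which the Neurod2 promoter drives a constitutively active Smoothened in cerebellar granule cells, so the precursors are not wild type. Tumour and age differ together and cannot be told apart in any comparison here. There were 3 arrays of MB (MB1, MB2 and MB915) and 3 of GNPs (GNPs1, GNPs3 and GNPs4).

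Long intergenic noncoding RNAs (lincRNAs) are transcripts from between protein-coding genes that hold no long open reading frame. As a class they are known for low abundance and for expression restricted to few tissues, with nervous tissue among the richest, although a few are abundant nuclear RNAs. Granule neuron precursors divide in the external granule layer of the young cerebellum under Sonic hedgehog from Purkinje cells. The ligand relieves the inhibition of Smoothened by Patched, Gli transcription factors then drive growth genes, and a Smoothened that is always active gives tumours of the Sonic hedgehog class.

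The arrays fell into fewer samples than their titles say. MB1 and MB2 were near identical, and so were GNPs1 and GNPs4: the root mean square difference over the 372 human-named probes tested was 0.215 log2 units within the MB pair and 0.222 within the GNPs pair, against 0.489 to 0.946 for the pairings of arrays from different samples. Each near-identical pair lay at the same slide position in 2 scans. Its arrays had 29 non-uniform spots in common, of 35 and 32 in MB and of 32 and 38 in GNPs, whereas any other pairing of the 6 arrays had 0 in common. Each pair was therefore averaged and counted as 1 sample, which left 2 samples per group. The labels do not tie samples to animals. The p-values therefore measure the spread among these samples, which may be technical only, and the small number of arrays limits precision. The labelled cell types could not be checked, since no probe of the markers considered carries a gene name in the files. Between 40571 and 43902 probes per array were well above background, which is the scanner software's call per spot, and 0 spots were saturated.

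Detection was narrow and similar in tumours and precursors. Between 34.1% and 41.7% of the human-named probes were well above background on an MB array and between 36.4% and 36.6% on a GNPs array. In numbers, 376 were well above background in MB1, 460 in MB2 and 403 in MB915, against 403, 404 and 402 in GNPs1, GNPs3 and GNPs4. The widest gap thus lay inside the near-identical MB pair: 370 probes were well above background on both of its arrays, 90 on MB2 alone and 6 on MB1 alone. Over the whole array MB2 had 43902 probes well above background and MB1 had 40571, so the gap was shared by other probes. In the GNPs pair 386 were shared, 17 were found on GNPs1 alone and 16 on GNPs4 alone.

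On all 6 arrays 305 human-named probes, or 27.6%, were well above background, and 548, or 49.6%, were so on none. The mouse-named probes were much alike, with 28.8% on all 6 arrays and 45.5% on none. Among catalogue probes the shares were 60.2% and 19.5%. Of the 15 probes named as negatives 0 reached this on all 6 arrays, and 1 did on a single array. The remaining 251 human-named probes lay between these extremes, with 86 on 1 array, 57 on 2, 49 on 3, 24 on 4 and 35 on 5. These shares count probes and not transcripts.

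**Figure D1:**
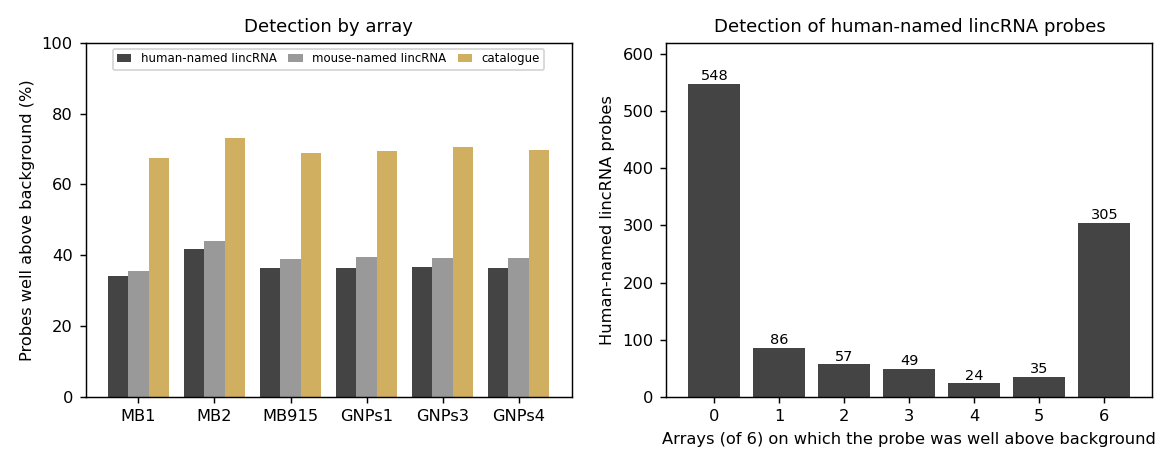
Left, percent of probes well above background on each of the 6 arrays (x axis) for human-named, mouse-named and catalogue probes; right, number of human-named probes (y axis) by the number of arrays on which they were well above background. Human-named bars stay between 34.1% and 41.7%, below the catalogue bars on every array, and 548 of the 1104 human-named probes were well above background on no array.

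Signals of the detected probes were low. For the 305 probes well above background on all 6 arrays, the median processed signal was 49.2, 53.2 and 69.3 intensity units in MB1, MB2 and MB915, against 56.8, 51.4 and 55.8 in GNPs1, GNPs3 and GNPs4. On the same arrays the medians of catalogue probes detected on all 6 ran from 145 to 215. A probe's signal depends on its sequence and labelling as well as on the RNA, so this describes signals and not RNA amounts. The log2 levels given from here on are relative to the array's own 75th percentile of signal, so that 0 means a signal equal to that percentile. The 372 human-named probes tested, those with every array of MB, of GNPs or of both well above background, had a median level of -2.65 over the 4 samples, and 48 of them, or 12.9%, lay above 0. Among catalogue probes tested 37.1% did.

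A few human-named probes were nonetheless among the bright spots of the array. The highest was humanlincRNA2438+_P1, with processed signals of 33114, 37425 and 35645 in MB1, MB2 and MB915, against 21854, 23270 and 20220 in GNPs1, GNPs3 and GNPs4. In log2 levels this was 7.28, 7.36 and 6.79 in MB and 6.16, 6.35 and 6.12 in GNPs. Every MB array lay above every GNPs array, by a difference of 0.81 that did not pass the test (SE 0.33, limma adjusted p 0.472).

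The next 4 by level lay on the other side of 0 in their difference. humanlincRNA2296+_P1 stood at 5.35, 5.44 and 6.15 in MB1, MB2 and MB915, against 6.60, 6.29 and 6.58 in GNPs1, GNPs3 and GNPs4. humanlincRNA2330+_P1 stood at 5.16, 5.22 and 5.92 on the MB arrays, against 6.31, 5.89 and 6.36 on the GNPs arrays. humanlincRNA0847-_P1 stood at 4.75, 4.73 and 5.44 in MB, against 5.89, 5.40 and 5.94 in GNPs. In these 3 probes MB1 and MB2 lay well under every GNPs array while MB915 lay within or just under the GNPs range. Their differences were -0.67, -0.56 and -0.57, and none passed in limma (adjusted p 0.575, 0.621 and 0.621). The remaining one, humanlincRNA2159-_P1, stood at 5.05, 5.04 and 5.07 in MB, against 5.55, 4.95 and 5.65 in GNPs, so that GNPs3 lay below all MB arrays.

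The main comparison asked which human-named probes differ between the tumours and the precursors. Most differences were small and positive, none passed the test across all probes, and the large ones were held by few probes. Fewer cells of a type and less RNA per cell cannot be told apart in such bulk samples. With limma, 0 of 372 had a Benjamini-Hochberg adjusted p under 0.05, where 0.0% of the 40887 probes tested over the array did. The smallest adjusted p of a human-named probe was 0.186, for humanlincRNA1948-_P1 and humanlincRNA1347-_P1. Each of these was tested only through the 1 group where it was high. Among human-named probes well above background on all 6 arrays the smallest adjusted p was 0.234. At an unadjusted p under 0.05 there were 26, or 6.99%, against 11.2% of all probes tested. Of these 26, 19 had positive and 7 negative differences, which is 5.11% and 1.88% of the human-named probes, against 5.64% and 5.57% of all. With the 6 arrays taken as separate samples limma called 30, or 8.06%, of which 22 were higher and 8 lower in MB, against 13.0% of all probes, 7.02% higher and 5.93% lower. That fit counts each near-identical pair as 2 independent samples. With the pairs as a random block limma called 0 human-named probes, against 212, or 0.519%, of all, and with scan as a further block 0, against 4, or 0.00978%, of all. On the arrays of scan 1 alone, which holds 1 array of each sample, limma called 0 human-named probes, against 0.0% of all. At an unadjusted p under 0.05 there were 24 in scan 1, or 6.45%, against 11.2% of all. Among the probes well above background on all 6 arrays, 11 human-named ones had an unadjusted p under 0.05 in the comparison of the samples, or 3.61%, against 8.9% of all.

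The median difference was 0.17 log2 units for the human-named probes, against 0.08 for all probes tested, and 251 differences were positive and 121 negative. The positive share was thus 67.5%, against 55.6% of all probes tested and 66.7% of the mouse-named ones. The size of the human-named median, and with it the positive share, depended on the scaling. With the median in place of the 75th percentile the human-named median was 0.017, because that scaling moves all probes: their median was then -0.066. Relative to all probes tested, the human-named median stood at 0.087 with the 75th percentile and 0.083 with the median. The mouse-named probes had a median of 0.18 with the 75th percentile. Within the scans, the human-named median was 0.18 in scan 1 and 0.12 in scan 2, against 0.083 and 0.085 for all probes. The scans hold arrays of the same samples and are not independent.

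The spread of the differences was narrow. The middle 50% of the human-named probes ran from -0.097 to 0.41, against -0.36 to 0.44 for all probes tested. A mean difference of at least 2-fold was found for 29 probes on the positive side, which is 7.80%, against 8.54% of all. On the negative side there were 7, or 1.88%, against 8.89% of all. The 228 mouse-named probes tested were much alike, with 5.70% on the positive and 1.75% on the negative side. The middle 50% of the mouse-named differences ran from -0.078 to 0.40. The MB samples lay wholly above the GNPs samples at 138 probes, or 37.1%, where 28.1% of all probes did, and wholly below at 36, or 9.68%, where 18.7% of all did. A probe tested through the detection of 1 group passed the filter by being high there, which favours a difference without requiring one. Of the 67 human-named probes on 3 to 5 arrays, 23.9% had a positive and 8.96% a negative difference of at least 2-fold. The MB samples lay wholly above at 31.3% of the 67 and wholly below at 13.4%. The shares over all probes on 3 to 5 arrays are not given, so those of the 67 are a description only. Among the 305 well above background on all 6 arrays, 13 had a positive difference of at least 2-fold, or 4.26%, against 7.05% of all such probes, and 1 a negative one, or 0.328%, against 6.63%. In these 305 the MB samples lay wholly above the GNPs samples at 117, or 38.4%, against 28.6% of all such probes, and wholly below at 27, or 8.85%, against 16.9%.

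The MB samples stood at unlike distances from the precursors. Array to array, the root mean square difference over the 372 probes was 0.898 to 0.946 between MB1 or MB2 and a GNPs array. Between MB915 and a GNPs array it was 0.648 to 0.675, and between MB915 and MB1 or MB2 it was 0.703 and 0.716. GNPs3 lay 0.502 and 0.489 from GNPs1 and GNPs4. In 232 probes, or 62.4%, the mean of MB1 and MB2 lay farther from the GNPs mean than MB915 did, which is the share among all probes tested as well, 62.4%. The number of human-named probes at an unadjusted p under 0.05 moved with the sample left out, as it did for all probes. It was 28, or 7.55%, without MB1 and MB2, against 12.8% of all, and 52, or 14.0%, without MB915, against 23.6% of all. Without GNPs1 and GNPs4 it was 11, or 2.96%, against 5.63% of all, and without GNPs3 it was 14, or 3.76%, against 6.38% of all. In such fits the lone sample is assumed to vary like the other group.

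For each direction 8 probes are described, those with the largest differences among probes well above background on all 6 arrays whose groups did not overlap. On the positive side their differences ran from 1.23 to 2.33 and their limma adjusted p from 0.234 to 0.561. The largest was that of humanlincRNA1543-_P1, at 1.62, 1.46 and -0.15 in MB1, MB2 and MB915, against -1.78, -1.56 and -1.63 in GNPs1, GNPs3 and GNPs4. All MB arrays lay above all GNPs arrays, with MB915 about midway between MB1 and MB2 and the precursors. humanlincRNA0848+_P1 showed the same order more strongly, at 0.13, 0.14 and -2.04 in MB, against -3.02, -3.17 and -2.97 in GNPs. Its difference was 2.13 (SE 0.78, limma adjusted p 0.44).

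In 6 of these 8 probes MB1 and MB2 lay farther from the precursors than MB915. The 2 others went the other way. humanlincRNA1643+_P1 stood at 0.17, 0.07 and 0.59 in MB1, MB2 and MB915, against -1.25, -1.65 and -1.31 in GNPs1, GNPs3 and GNPs4. Its arrays split cleanly by group, and its difference of 1.82 (SE 0.34, limma adjusted p 0.234) had the smallest adjusted p among the 16. humanlincRNA1995+_P1 stood at -2.00, -1.97 and -1.59 in MB, against -3.14, -3.52 and -3.34 in GNPs, a difference of 1.59 (SE 0.32, limma adjusted p 0.254).

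The remaining 4 on the positive side had mean levels from -3.52 to -2.55. humanlincRNA2253-_P1 stood at -0.74, -0.93 and -2.61 in MB, against -3.28, -3.50 and -3.22 in GNPs. humanlincRNA2091-_P1 stood at -1.89, -1.74 and -3.13 in MB, against -4.35, -3.90 and -3.93 in GNPs, and humanlincRNA1366-_P1 at -2.42, -2.37 and -3.14 in MB, against -4.40, -4.25 and -4.21 in GNPs. humanlincRNA2129-_P1 had the narrowest gap between groups, at -1.91, -1.85 and -3.61 in MB, against -4.41, -3.75 and -3.97 in GNPs. All 8 differences were smaller with normexp background correction and an offset of 50, between 0.49 and 1.78.

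**Figure D2:**
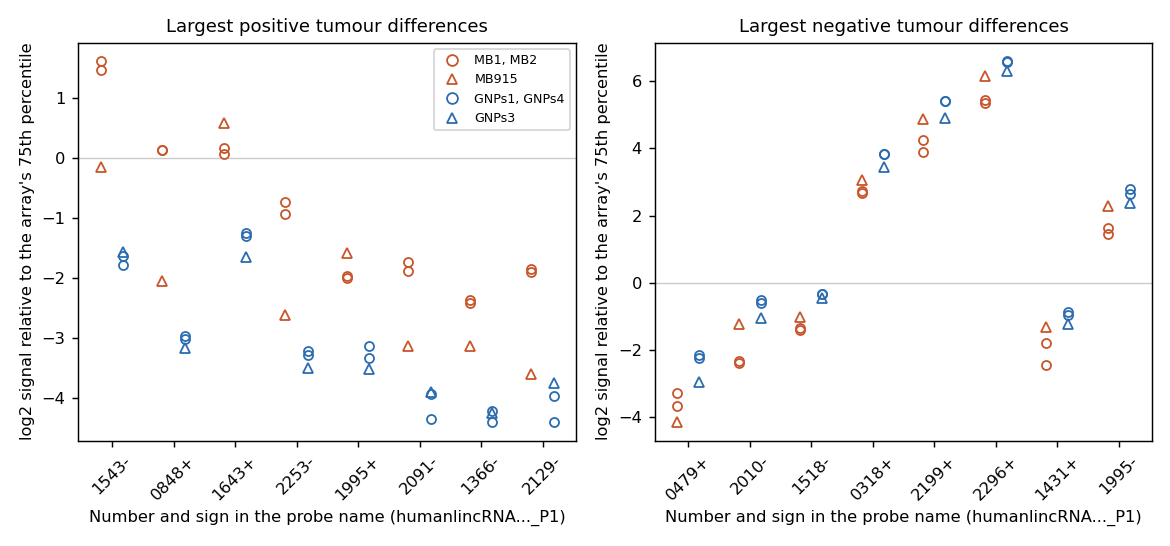
Log2 signal relative to the array's 75th percentile (y axis) on each array for the 8 human-named probes with the largest positive (left) and the 8 with the largest negative (right) differences, MB in orange and GNPs in blue, circles for the near-identical pairs and triangles for MB915 and GNPs3. Each probe's MB points lie on one side of its GNPs points when the pair is averaged, and MB915 lies nearer to the GNPs points in 6 of the 8 probes on the left.

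On the negative side the differences were smaller, from -1.23 to -0.63, with limma adjusted p from 0.427 to 0.591. humanlincRNA0479+_P1 stood at -3.67, -3.28 and -4.15 in MB1, MB2 and MB915, against -2.25, -2.96 and -2.16 in GNPs1, GNPs3 and GNPs4. It was the only one of the 8 in which MB915 lay farther from the precursors than MB1 and MB2. humanlincRNA2010-_P1 stood at -2.39, -2.34 and -1.23 in MB, against -0.52, -1.04 and -0.60 in GNPs. humanlincRNA1518-_P1 had a tighter pattern, at -1.40, -1.34 and -1.02 in MB, against -0.34, -0.46 and -0.33 in GNPs.

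Brighter probes made up much of the negative side. humanlincRNA0318+_P1 stood at 2.68, 2.74 and 3.05 in MB, against 3.82, 3.45 and 3.83 in GNPs. humanlincRNA2199+_P1 stood at 4.25, 3.90 and 4.87 in MB, against 5.42, 4.91 and 5.41 in GNPs, so that MB915 lay just under GNPs3. humanlincRNA1995-_P1 stood at 1.62, 1.46 and 2.30 in MB, against 2.65, 2.38 and 2.78 in GNPs. The last of the 8, humanlincRNA1431+_P1, had lower levels, at -1.79, -2.43 and -1.30 in MB, against -0.95, -1.21 and -0.87 in GNPs.

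The sign of the difference varied with the signal level. The 48 human-named probes with a mean level above 0 had a median difference of -0.29, and 16 of them were positive. All probes above that level had a median of 0.024, and the 26 mouse-named ones had -0.41. The 181 probes between -3 and 0 had a median of 0.19, against 0.099 for all probes there, and the 143 below -3 had 0.25, against 0.13. The limits of these ranges were chosen after the values had been seen, so the medians are a description without a test.

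The negative median of the 48 brighter probes came mainly from MB1 and MB2. It was -0.39 for the mean of these arrays minus the GNPs mean and -0.094 for MB915 minus the GNPs mean. It was -0.28 in scan 1 and -0.57 in scan 2. It was also below 0 in each of the other settings run, from -0.44 with median scaling to -0.094 without MB1 and MB2. The medians of the lower ranges were sensitive to scaling, and those of all probes there moved with them. Quantile normalization gave the 143 probes with a level below -3 a median of 0.018, against -0.066 for all probes below -3. Median scaling gave the 181 between -3 and 0 a median of 0.048, against -0.047 for all probes there.

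**Figure D3:**
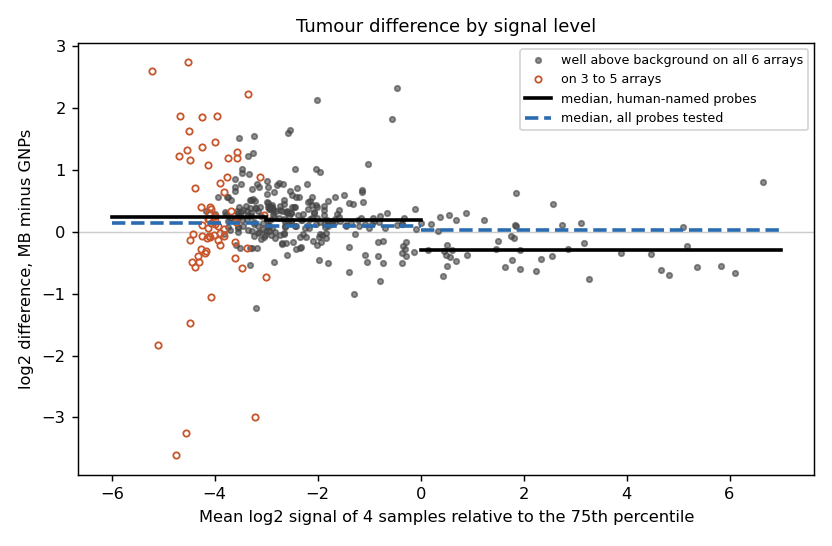
Log2 difference MB minus GNPs (y axis) against mean log2 level over the 4 samples (x axis) for the 372 human-named probes tested, with filled points well above background on all 6 arrays and open points on 3 to 5. The black line, the median of the human-named probes in each of 3 level ranges, drops to -0.29 above a level of 0, while the dashed line for all probes tested stays at 0.024.

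Counted by distance, every MB sample lay at least 2-fold above every GNPs sample at 9 human-named probes, which is 2.42%, against 2.51% of all probes tested. At least 2-fold below were 4, or 1.08%, against 2.61%. Of the 9, 4 were well above background on all 6 arrays, namely humanlincRNA1543-_P1, humanlincRNA1643+_P1, humanlincRNA1995+_P1 and humanlincRNA1366-_P1. These 4 are 1.31% of the 305, against 1.68% of all probes well above background on all 6 arrays. The other 5 of the 9, and all 4 of those below, were detected in 1 group alone and were tested through that group. With normexp and an offset of 50 the counts were 2 and 0, for which no share over all probes is given.

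Detection in 1 group alone was equally frequent in both directions. There were 10 probes well above background on all 3 MB arrays and on no GNPs array, which is 0.906% of the human-named probes, against 0.639% of all. In the opposite direction there were also 10, against 0.959% of all. For such a probe the dim group gives only a bound, taken on each of its arrays as the lowest signal well above background, or the probe's own signal where that is higher. A bound compares group means, so a single sample can lie closer than the bound says. Bounds were computed on the processed signals only, not with normexp. Levels called dim are those read on arrays where the probe was not well above background. A limma p given beside a bound is that of the fit on the levels as read and is no test of the bound. Such a probe also passed the filter only through the group where it was high.

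The largest bound was in the precursors. humanlincRNA1948-_P1 was well above background on all GNPs arrays, at -2.15, -1.36 and -1.99 in GNPs1, GNPs3 and GNPs4, against dim levels of -5.03, -5.12 and -4.34 in MB1, MB2 and MB915. It was at least 5.89-fold lower in MB (limma adjusted p 0.186). humanlincRNA1606-_P1 and humanlincRNA0836+_P1 were at least 2.52-fold and at least 2.50-fold lower, with limma adjusted p of 0.291 and 0.272. The GNPs samples disagreed on both: humanlincRNA1606-_P1 stood at -2.07 and -1.94 in GNPs1 and GNPs4 and at -3.87 in GNPs3. humanlincRNA0836+_P1 showed the reverse, at -3.81 and -4.22 in GNPs1 and GNPs4 and at -1.89 in GNPs3. Their dim MB means were -6.20 and -6.56, against GNPs means of -2.94 and -2.95. humanlincRNA1841+_P1, humanlincRNA1576-_P1 and humanlincRNA1590+_P1 were at least 1.65-fold, 1.44-fold and 1.16-fold lower in MB. The bound was above 1 for 9 of the 10, and for the remaining one, humanlincRNA0922+_P1, named after its values were seen, it gave no fold.

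In MB the bounds of the 10 ran from 1.33-fold to 2.78-fold. humanlincRNA1518+_P1 stood at -1.84, -2.08 and -4.06 in MB1, MB2 and MB915, against dim levels of -5.19, -4.70 and -4.97 in GNPs1, GNPs3 and GNPs4. It was at least 2.78-fold higher in MB (limma adjusted p 0.472), with MB915 far nearer to the precursors. humanlincRNA1347-_P1 stood at -2.53, -2.88 and -3.58 in MB, against dim levels of -5.75, -5.96 and -5.87 in GNPs, and was at least 2.54-fold higher (limma adjusted p 0.186). humanlincRNA1098-_P1 was at least 2.34-fold higher, with a mean of -3.26 in MB and a dim mean of -4.72 in GNPs. It stood at -2.34, -2.35 and -4.17 in MB1, MB2 and MB915, so that MB915 again lay far nearer to the precursors. humanlincRNA2354+_P1, humanlincRNA1988-_P1 and humanlincRNA0469+_P1 were at least 1.90-fold, 1.73-fold and 1.68-fold higher, with MB means of -3.56, -3.69 and -3.73.

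The names form sign pairs. The 1104 probes hold 557 names when the sign is left out, of which 547 have a plus and a minus probe, 2 only a plus and 8 only a minus. Plus and minus probes were detected alike: 28.5% of the plus and 26.7% of the minus probes of a pair were well above background on all 6 arrays. Both probes were so in 50 pairs, or 9.14%, the plus probe alone in 106, the minus probe alone in 96 and neither in 295. The plus probe was detected in 34.2% of the pairs whose minus probe was detected and in 26.4% of the others. The median differences were alike too, 0.19 for the 187 plus probes tested and 0.16 for the 185 minus probes.

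Both probes were tested in 69 pairs, and their differences bore little relation to each other. Both were positive in 34 pairs, both negative in 11, and opposite in 24, of which 12 had the plus probe positive. Across the 69 pairs Pearson's r between the plus and the minus difference was -0.025 and Spearman's rho 0.14, and across the 50 pairs with both probes well above background on all 6 arrays they were 0.093 and 0.16. The pairs share arrays and scaling and are not independent replicates.

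A pair with both differences positive was humanlincRNA2438, whose bright plus probe was described above. humanlincRNA2438-_P1 was far dimmer, at -1.86, -1.47 and -1.98 in MB1, MB2 and MB915, against -2.52, -2.58 and -2.71 in GNPs1, GNPs3 and GNPs4. Its difference of 0.78 was close to the 0.81 of the plus probe, and neither passed in limma (adjusted p 0.446 and 0.472). In humanlincRNA0531 the minus probe had a difference of 0.51, and the plus probe, well above background in MB alone, was at least 1.53-fold higher in MB. In humanlincRNA2268 the differences were 1.19 for the plus and 0.60 for the minus probe, but the GNPs range reached into the MB range in both probes.

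Unequal changes within a pair were tested as the plus minus the minus level of each sample, in which array scaling cancels. Over the 106 human-named and mouse-named pairs with both probes tested, limma called 3 pairs, 2.83%, at an adjusted p under 0.05. All 3 were human-named, which is 4.35% of 69. At an unadjusted p under 0.05 there were 8 human-named pairs, or 11.6%, against 13.2% of all pairs. The 3 were humanlincRNA1995, humanlincRNA1948 and humanlincRNA0419. Only for humanlincRNA1995 does the call rest on levels well above background in both groups. The count of 3 is therefore no result about human-named pairs as a set. In humanlincRNA1995 the plus probe shifted upward in MB relative to the minus probe, by 2.22 (SE 0.37, limma adjusted p 0.0133).

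humanlincRNA1995 was the one of these whose probes both passed background on all 6 arrays. Plus minus minus stood at -3.53 in the mean of MB1 and MB2 and at -3.88 in MB915, against -5.95 in the mean of GNPs1 and GNPs4 and -5.90 in GNPs3. The samples of a group lay close together and far from those of the other group. The plus probe had a difference of 1.59 and the minus probe of -0.63, on opposite sides of 0. Among pairs with both probes well above background on all 6 arrays it was the only one called, 1 of 76 pairs or 1.32% (limma adjusted p 0.0103). Its contrast was 2.19 in scan 1 and 2.50 in scan 2. With normexp it was 1.44 and not called (limma adjusted p 0.0602), and without GNPs1 and GNPs4 it was 2.20 (limma adjusted p 0.0523).

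The other pairs called each hold a probe that was tested through the 1 group in which it was high, so no size or p is given for their contrasts. In humanlincRNA1948 this was the minus probe, whose levels are given above. Its plus probe overlapped between the groups, at -4.37, -4.27 and -2.32 in MB1, MB2 and MB915, against -4.03, -4.19 and -4.43 in GNPs1, GNPs3 and GNPs4. In humanlincRNA0419 it was the plus probe, which was well above background on all MB arrays, at -3.58, -3.62 and -4.23 in MB1, MB2 and MB915, against dim levels of -6.82, -6.84 and -5.58 in GNPs1, GNPs3 and GNPs4. This probe was at least 1.49-fold higher in MB. The minus probe overlapped between the groups, at -2.38, -2.38 and -3.10 in MB, against -2.88, -3.37 and -3.27 in GNPs. With normexp none of the 3 pairs was called.

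**Figure D4:**
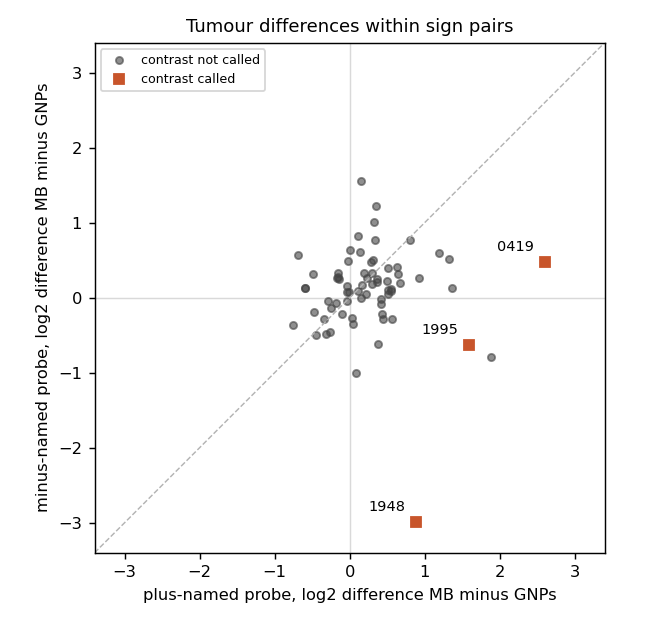
Log2 difference MB minus GNPs of the plus-named probe (x axis) against that of the minus-named probe (y axis) for the 69 human-named pairs with both probes tested, with the dashed line marking equal differences. The squares are the 3 pairs whose plus minus minus contrast was called, all below the line, of which humanlincRNA1948 and humanlincRNA0419 are drawn at levels that were not well above background in 1 group, and the other pairs scatter around 0 with a Pearson's r of -0.025 over all 69.

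Of the pairs well above background on all 6 arrays, the next largest contrasts were not called. In humanlincRNA2091 the contrast was -1.39 (SE 0.56, limma adjusted p 0.301): the minus probe had a difference of 1.55 and the plus probe of 0.16, with plus levels of -2.98, -2.49 and -2.37 in MB1, MB2 and MB915, against -2.59, -2.87 and -2.51 in GNPs1, GNPs3 and GNPs4. In humanlincRNA2199 it was -1.26 (SE 0.44, limma adjusted p 0.207), with a minus probe at -3.33, -3.46 and -3.53 in MB, against -3.96, -4.10 and -3.93 in GNPs. The bright plus probe and the dimmer minus probe of that name thus had differences on opposite sides of 0, at -0.69 and 0.56. In humanlincRNA2010 the contrast was 1.09 (SE 0.41, limma adjusted p 0.273), with a plus probe at -3.80, -3.76 and -3.04 in MB, against -3.66, -3.39 and -3.53 in GNPs. Its plus difference of 0.086 turned below 0 with median scaling, quantile normalization and in the authors' deposited normalized table, and so did that of humanlincRNA2091+_P1 with the second and the third of these.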

How the data were processed

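RNA of 6 mouse samples was freed of rRNA, amplified by random priming and hybridised to 1-colour Agilent arrays, per the labels' protocols. The deposited scanner files hold intensity values and flags per spot, made with Feature Extraction 11.0.1.1, per the file headers. The authors also deposited a normalized table on a log2 scale, equal to the series matrix at 60804 probes, whose method and build are not given in the sources used here; its columns have a median of 5.50, and each ranked closest to its own array. Its scale and direction follow from slopes of 0.984 to 1.02 on log2 scanner signal; its centring is unknown.

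From the processed signals, the 58 to 187 spots per array with a non-uniformity or population outlier flag were dropped, log2 taken, repeated spots averaged and the 75th percentile of the array, over probes not marked as controls, subtracted. Among the human-named probes tested, 1 such spot, of humanlincRNA2300-_P1 in MB915, was left out of its fit. A probe was tested if all arrays of MB, of GNPs or of both had it well above background. Groups were compared with limma 3.58.1 in R 4.3.3 (lmFit and eBayes, two-sided, Benjamini-Hochberg over 40887 probes or 106 sign pairs), with data.table (version 1.17.8) for reading and Python 3.11.15, pandas 2.3.3 and matplotlib 3.10.9 for summaries and figures. The fit was tested on simulated data. Means and SDs are over 2 samples per group, and differences are MB minus GNPs.

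The members, lists and tests were chosen with earlier results of these data known. Probes named are, among those well above background on all 6 arrays whose groups did not overlap, the 8 with the largest difference in each direction; the 5 brightest; the 6 with the largest bound in each direction among those detected in 1 group alone; the 4 pairs with the largest contrast among pairs well above background on all 6 arrays; and the 3 pairs whose differences were both largest in 1 direction. humanlincRNA0419 and humanlincRNA1948+_P1 were named after their values were seen. Alternatives were median and quantile scaling, normexp with an offset of 50 (on median signals, since mean signals were not used here), the authors' table, other filters, flagged spots kept, other variance models, array counting, scan and left-out samples. The scanner headers distinguish 2 scans, each with arrays of both groups.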

Additional observations from a re-analysis of the deposited data

How the results depend on the processing

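No human-named probe was called in limma under any setting except with the 6 arrays as separate samples, where 30 were (8.06%, against 13.0% of all probes). Of all probes, 212 were called with the pairs as a random block, 4 with scan as a further block and 1 with median scaling. The number of human-named probes at an unadjusted p under 0.05 was lowest with normexp, at 9 (2.42%, against 9.59% of all probes). Apart from the fit of 6 separate arrays it was highest without a filter on dim probes, at 64 (5.80%, against 8.60%). With 6 separate arrays it was 115 (30.9%, against 35.8%). The median difference of 0.17 was 0.017 with median scaling, 0.051 with quantile normalization, 0.049 in the authors' deposited normalized table and 0.29 without a filter, and 0.16 to 0.19 with samples left out. The 9 probes with MB at least 2-fold above GNPs became 2 with normexp, 4 among probes well above background on all 6 arrays, 25 without a filter and 13 to 34 with samples left out, most without MB915. The 4 at least 2-fold below became 0 with normexp, 0 among probes well above background on all 6 arrays and 5 to 9 with samples left out, most without GNPs3. Of all probes well above background on all 6 arrays, 1.68% lay at least 2-fold above and 1.59% below. For normexp, no filter and left-out samples the shares over all probes are not given, so those counts describe the settings only. The 3 contrasts called, 4.35% against 2.83% of all pairs, became 12 with 6 separate arrays (17.4%, against 18.9% of all pairs), 1 with both probes well above background on all 6 arrays, 0 with normexp, and 1 to 11 with samples left out: 11 without MB915 (15.9%, against 17.0% of all pairs) and 1 without GNPs1 and GNPs4 (1.45%, against 0.943%). Of the 3 contrasts called, only that of humanlincRNA1995 rests on probes that were both well above background on all 6 arrays. The 305 probes detected on all 6 arrays compare with 556 on at least 1 array, 372 on every array of a group, 331 above the highest negative probe, and 309 to 332 with samples left out. Leaving out a sample leaves its group with 1 sample, assumed to vary like the other.

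Of 40 named probes, 18 passed with 6 separate arrays and 0 in the other settings tested that kept all samples. The 40 were picked from these same values, some through detection in 1 group alone, so these counts are no result about the set. These differences turned sign: humanlincRNA1590+_P1 was 0.074 with normexp; humanlincRNA2010+_P1 was -0.060 with median scaling, -0.14 with quantile normalization, -0.14 in the authors' deposited normalized table, -0.0041 with 6 separate arrays, -0.29 without MB915 (0.46 without MB1 and MB2), -0.016 without GNPs1 and GNPs4 and -0.27 in scan 2; humanlincRNA2091+_P1 was -0.00020 with quantile normalization, -0.0042 in the authors' deposited normalized table, -0.026 without MB915 (0.34 without MB1 and MB2) and -0.46 in scan 2; and humanlincRNA2159-_P1 was 0.10 without GNPs1 and GNPs4 (-0.55 without GNPs3). The causes were not tested. No paired analysis was possible because the groups share only the replicate number 1. Low signal over background limits the dim probes most.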
